A study of Mus musculus with 18 samples.

Results

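The splicing factors and heterogeneous nuclear ribonucleoproteins (hnRNPs) described here are the probe sets of chips 430A and 430B whose 1 gene symbol in the platform annotation begins with Srsf and a digit, Hnrnp, Sf3a or Sf3b and a digit, U2af, Rbm and a digit, or Rbmx. The rule found 228 probe sets of 81 genes among 45265 probe sets of 18194 genes: 59 probe sets of 19 hnRNP genes, 33 of 10 SR protein genes, 33 of 12 genes for SF3 and U2AF, and 103 of 40 genes for RNA-binding motif (RBM) proteins. Among the latter are 2 transcripts named for the opposite strand of an Rbm gene, Rbm3os and Rbm46os. A further 19 probe sets carry several symbols of which at least 1 matches, and were not used because their signal cannot be assigned to 1 gene. They include every probe set of Rbm3, Rbm10, Rbm4 and Hnrnpa3.

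The hearts came from male Tet-myrAkt1/αMHC-tTA mice. In these the αMHC promoter drives the tetracycline-controlled activator tTA in heart muscle cells. The activator in turn drives a tetracycline-regulated transgene for a membrane-anchored, active form of the kinase Akt1. All 3 groups carry both transgenes. The control group held 3 hearts at 8 weeks of age before AAC, an aortic constriction that loads the left ventricle with pressure. The group 4wkpost held 3 hearts 4 weeks after AAC, at 12 weeks of age. The group 3wkAkt/6wkpost held 3 hearts 6 weeks after AAC in which Akt was switched on, for 3 weeks by the titles and 2 weeks by the descriptions, with an age label of 12 weeks. Each of the 9 hearts was hybridized to both chips, 18 arrays in all. Both 4wkpost replicates 1 and 3 carry the number 1 in their descriptions, while their titles number them 1 and 3, so the labels do not settle whether these are separate hearts, as they were treated here. With their mean as 1 sample the number of members passing the test, given below, was 3 in place of 11 at 4 weeks after AAC and 6 in place of 11 in the step from there to Akt. Over all tested probe sets it was 498 in place of 1199 and 370 in place of 688. Whether 1 heart is 1 animal, whether RNA was pooled and whether atria were taken is not given in the labels, so p-values measure the spread between these samples, which may be in part technical. AAC and age cannot be told apart in the first step, nor Akt and time after AAC in the second.

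Splicing of nuclear transcripts is carried out by the spliceosome, in which U2AF reads the end of the intron and the SF3A and SF3B complexes of the U2 particle hold the branch site. SR proteins mostly favour the use of nearby splice sites and hnRNPs often oppose it, so that the balance between them sets which exons are kept. RBM proteins are a broad family with RNA recognition motifs. In heart muscle Rbm20 and Rbm24 are known for splicing the transcripts of sarcomere and calcium-handling proteins. Many genes of these families splice their own transcripts into forms with a retained intron or a premature stop, and a probe set reads only 1 stretch of a transcript, so probe sets of 1 gene need not move alike.

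The promoters of 4 hnRNP genes are shown first, since the results turn on them: Hnrnpa1, Hnrnph3 and Hnrnpu were lower in 3wkAkt/6wkpost hearts than in both other groups at 1 or more probe sets, and Hnrnpk was highest in 4wkpost hearts at 1 of its 4 probe sets. Each line holds the 250 bases before the start of the gene, from RefSeq (GRCm38.p6), read in the direction of transcription: chr15:103240147-103240396 on the plus strand for Hnrnpa1, chr10:63023850-63024099 on the minus strand for Hnrnph3, chr1:178337816-178338065 on the minus strand for Hnrnpu and chr13:58402118-58402367 on the minus strand for Hnrnpk. Capitals mark matches, on either strand, to the CCAAT box (CCAAT), the GC box (GGGCGG), the ETS site (CCGGAAG), the TATA box (TATAAA), the forkhead site of FoxO factors (GTAAACA) and the E-box (CACGTG).
Hnrnpa1: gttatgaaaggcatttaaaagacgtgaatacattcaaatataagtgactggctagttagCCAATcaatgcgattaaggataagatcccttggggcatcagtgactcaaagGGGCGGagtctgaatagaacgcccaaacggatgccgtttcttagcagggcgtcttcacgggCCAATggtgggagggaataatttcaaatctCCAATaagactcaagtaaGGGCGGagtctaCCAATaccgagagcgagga
Hnrnph3: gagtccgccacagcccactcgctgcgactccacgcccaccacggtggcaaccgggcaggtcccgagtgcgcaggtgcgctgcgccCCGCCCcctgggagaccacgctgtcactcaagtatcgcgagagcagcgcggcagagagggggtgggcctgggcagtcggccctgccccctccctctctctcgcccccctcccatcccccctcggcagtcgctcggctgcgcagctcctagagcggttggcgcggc
Hnrnpu: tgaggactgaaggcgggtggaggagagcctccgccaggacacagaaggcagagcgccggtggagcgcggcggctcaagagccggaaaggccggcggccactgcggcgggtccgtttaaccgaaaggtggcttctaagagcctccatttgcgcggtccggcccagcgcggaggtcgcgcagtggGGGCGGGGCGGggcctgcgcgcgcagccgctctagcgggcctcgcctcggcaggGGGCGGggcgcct
Hnrnpk: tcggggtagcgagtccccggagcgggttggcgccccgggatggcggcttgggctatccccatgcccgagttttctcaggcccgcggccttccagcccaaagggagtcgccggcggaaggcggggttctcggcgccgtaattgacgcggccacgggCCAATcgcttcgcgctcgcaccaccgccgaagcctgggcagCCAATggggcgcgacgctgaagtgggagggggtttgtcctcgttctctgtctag
The Hnrnpa1 promoter held 4 CCAAT boxes and 2 GC boxes, and that of Hnrnpk held 2 CCAAT boxes. The Hnrnph3 promoter held 1 GC box and that of Hnrnpu 3, of which 2 overlap by 1 base. None of these 4 windows held the other motifs. By symbol, 69 of the 81 genes had a promoter in the table. A GC box stood in 39 of the 69 (56.5%, against 35.4% of 27025 genes with a promoter), a CCAAT box in 33 (47.8%, against 37.5%) and an ETS site in 17 (24.6%, against 7.83%). An E-box stood in 8 (11.6%, against 6.86%), a TATA box in 8 (11.6%, against 14.3%) and a forkhead site in 2 (2.9%, against 3.54%). These are matches of letters and say nothing of binding.

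Of the 228 probe sets, 184 (80.7%) of 75 genes passed a filter that kept the brightest 60% of each chip by mean signal, and these were tested. The members Rbm11, Rbm3os, Rbm44, Rbm46, Rbmx2 and Srsf12 had no probe set past this filter. Levels below are log2(signal + 32) of the scaled MAS5 signal, and differences are on that scale, which understates the change of dim probe sets. The heart muscle label was borne out by its markers, 8 of 8 of which passed the filter, against 0 of 6 markers of skeletal muscle. The 3' to 5' signal ratio of β-actin on chip 430A, a measure of RNA integrity, lay between 1.49 and 2.04 in control hearts, between 1.14 and 1.21 in 4wkpost hearts and between 1.04 and 1.22 in 3wkAkt/6wkpost hearts. The controls did not overlap with either other group (exact permutation test, p = 0.1 for each, the smallest p that 3 against 3 allows; p = 0.4 between the other two). Its part in the differences from the controls was not tested. The mean log2 level of the atrial genes Nppa, Myl4, Myl7 and Sln was 13.42 or more in control hearts 2 and 3, 4wkpost heart 1 and 3wkAkt/6wkpost heart 1, and 11.11 or less in the other 5 hearts. This score did not separate the groups (exact permutation test, p = 0.6, 0.7 and 0.7).

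At 4 weeks after AAC, Hnrnpk was raised 2.05-fold at 1 probe set over the controls, while U2af2 was lower by 3.24-fold. Rbmxl2 was lower by 3.16-fold, at a probe set that passed the filter only through its control hearts. In all, 11 of the 184 probe sets passed (5.98%, against 4.43% of 27083 probe sets): 7 were higher (background 2.75%) and 4 lower (background 1.68%), a share close to the background. By class these were 5 of 51 hnRNP probe sets and 2 of 30 SR protein probe sets, all higher, and 2 of 30 for SF3 and U2AF and 2 of 73 for RBM proteins, all lower. This split depends on the processing: with quantile normalization 2 were higher and 4 lower, and both SR protein calls were lost. It was 1 higher and 3 lower with no filter or with 1 probe set per gene, and 2 higher and 3 lower without a variance trend. The median difference over the members was 0.03, against -0.04 over all probe sets. In tissue RNA, more or fewer cells of a type and more or less RNA per cell cannot be told apart.

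Hnrnpk encodes a protein that binds runs of C in RNA and DNA. Its probe set 1448176_a_at read 10.11, 10.39 and 10.23 in control hearts 1 to 3, 11.16, 11.52 and 11.16 in 4wkpost hearts and 10.72, 10.77 and 10.57 in 3wkAkt/6wkpost hearts. All 4wkpost hearts lay above all others, and the 3wkAkt/6wkpost hearts lay between the other groups. The 4wkpost minus control difference was 1.04 (SE 0.14, limma adjusted p = 0.00573). Of its other probe sets, 1423684_at read 10.08, 10.09 and 10.10 before and 10.47, 10.57 and 10.51 after 4 weeks, groups that do not overlap, with a difference of 0.43 that missed the threshold (adjusted p = 0.0541). The remaining probe sets, 1454692_x_at and 1460547_a_at, differed by 0.07 and -0.07.

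Rbmxl2 is an intronless copy of Rbmx known from male germ cells. Its probe set on chip 430B read 7.75, 7.59 and 7.77 in control hearts, 6.20, 6.02 and 5.92 in 4wkpost hearts and 6.12, 6.01 and 6.27 in 3wkAkt/6wkpost hearts. The control hearts stood apart from all 6 operated hearts, which overlapped with each other. On chip 430B the filter kept mean signals of 47.3 or more over all hearts. In each of the 6 operated hearts the signal lay below that cut, so the probe set passed through its control hearts. The size of its fall is uncertain, since the operated hearts lay near the floor. The difference at 4 weeks was -1.66 (SE 0.21, adjusted p = 0.0039) and that of the 3wkAkt/6wkpost hearts from the controls -1.57 (adjusted p = 0.00131). Being a near copy, it may share signal with Rbmx, whose own 2 probe sets differed at 4 weeks by 0.18 and -0.75 without passing the test.

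U2af2 encodes the large subunit of U2AF, which binds the pyrimidine-rich tract before the intron's end. It read 12.05, 11.34 and 11.74 in control hearts, 9.90, 9.83 and 10.31 in 4wkpost hearts and 11.38, 10.33 and 10.54 in 3wkAkt/6wkpost hearts. The fall at 4 weeks was -1.69 (SE 0.26, adjusted p = 0.00972). With Akt on, heart 1 reached the lowest control while hearts 2 and 3 stayed just above the 4wkpost range. The difference from 4wkpost was 0.74 (adjusted p = 0.168) and that from the controls -0.96 (adjusted p = 0.0303). The partner subunit U2af1 differed by no more than 0.09 in size in any comparison, with a 95% interval from -0.40 to 0.22 at 4 weeks.

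The other hnRNP probe sets that rose at 4 weeks were Hnrnph2, a binder of G runs, by 0.85 (adjusted p = 0.0298), Hnrnpc 1418693_at, a binder of U runs, by 0.71 (0.0406), Hnrnpdl 1449039_a_at, a relative of the AU-rich element binder Hnrnpd, by 0.68 (0.0461), and Hnrnpab 1453849_s_at by 0.61 (0.0377). Hnrnph2 read 7.89, 8.57 and 8.45 before and 9.0, 9.16 and 9.30 after 4 weeks. Hnrnpc 1418693_at read 8.18, 8.59 and 8.44 before and 8.91, 9.28 and 9.13 after. In each of these 4 every 4wkpost heart lay above every control. Among SR proteins, the general splicing factor Srsf1 rose at 1452430_s_at by 0.73 (0.0381), from 8.82, 8.32 and 8.56 to 9.02, 9.44 and 9.42. Srsf2, known for binding exonic enhancers, rose at 1452439_s_at by 0.65 (0.0479), from 8.36, 8.20 and 8.15 to 8.68, 8.76 and 9.22. Rbm39, a splicing cofactor related to U2AF, fell at 1438420_at by 0.61 (0.0278), and Sf3a2, a subunit of the U2 particle, fell at 1450576_a_at by 0.66 (0.0351). Neither pair of groups overlapped. Across all members, 61 of 184 probe sets had groups without overlap, against 29.3% of all probe sets.

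Only the calls of Hnrnpk, Rbmxl2 and U2af2 held at 4 weeks in all 9 fits that left out 1 heart. That of Rbmxl2 gains no support from this, since its probe set passed the filter only through the control hearts. The other 8 were each lost without control 1, 2 or 3 and without 4wkpost 2. Without 4wkpost 1 all 8 but Srsf1 were lost, and without 4wkpost 3 all but Hnrnpdl and Rbm39. Hnrnpdl and Srsf2 were lost without 3wkAkt/6wkpost 2, and these and Hnrnpc without 3wkAkt/6wkpost 3. Their highest adjusted p lay between 0.0986 for Hnrnph2 and 0.151 for Hnrnpdl and Srsf2, with 3 calls left without any 1 of the control hearts and 18 without 3wkAkt/6wkpost 1. Over all 27083 probe sets 118 to 375 calls were left without 1 of the control hearts and 1799 without 3wkAkt/6wkpost 1, against 1199 with all hearts.

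**Figure D1:**
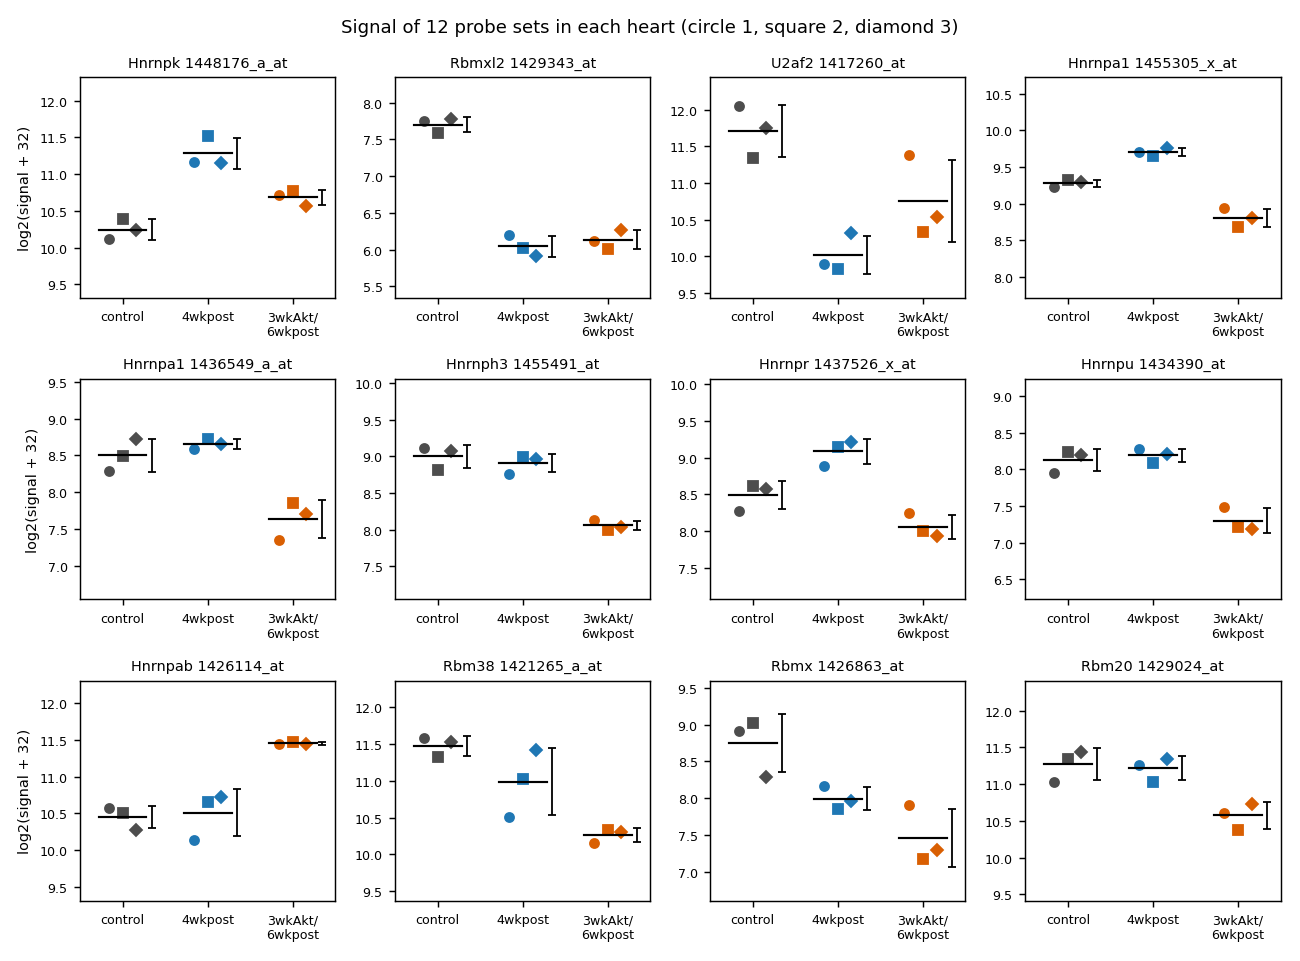
Level of 12 probe sets as log2(signal + 32) (vertical axis, 3 units in each panel) in the 3 hearts of each group (horizontal axis), with the group mean as a bar and the SD as an error bar. Hnrnpk 1448176_a_at is highest in 4wkpost hearts (11.16 to 11.52), Rbmxl2 is highest in control hearts (7.59 to 7.77), and Hnrnpa1, Hnrnph3 and Hnrnpu are lowest in 3wkAkt/6wkpost hearts, with Hnrnph3 at 8.00 to 8.13.

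With Akt switched on, hnRNP transcripts were lower than at 4 weeks after AAC in 6 of the 7 hnRNP probe sets that passed the test. Both tested probe sets of Hnrnpa1 fell, by 2.02-fold and 1.86-fold, as did 1 probe set each of Hnrnpr, Hnrnph3, Hnrnpu and Hnrnpk; 1 probe set of Hnrnpab rose 1.93-fold. Outside the hnRNPs the SR protein Srsf5, the U2 subunit Sf3b2, and Rbm25 and Rbm20 fell by 1.51-fold to 1.78-fold. In all, 11 of 184 probe sets passed (5.98%, against 2.54% of all probe sets), 10 lower (5.43%, background 1.46%) and 1 higher (background 1.08%). Groups did not overlap at 44 of 184, against 20.6% of all probe sets. The calls were 7 of 51 for hnRNPs, 1 of 30 for SR proteins, 1 of 30 for SF3 and U2AF and 2 of 73 for RBM proteins. This comparison shares the 4wkpost hearts with the one before it, so a high value in those hearts enters both.

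Hnrnpa1, an abundant hnRNP that shuttles between nucleus and cytoplasm and represses splice sites, had 2 probe sets. At 1455305_x_at it read 9.23, 9.32 and 9.29 in control hearts, 9.70, 9.65 and 9.76 in 4wkpost hearts and 8.94, 8.68 and 8.80 in 3wkAkt/6wkpost hearts. At 1436549_a_at it read 8.29, 8.49 and 8.73, then 8.59, 8.72 and 8.66, then 7.35, 7.86 and 7.71. In both, the 3 hearts with Akt on lay below the other 6. The differences from 4wkpost were -0.90 (SE 0.13, adjusted p = 0.00446) and -1.02 (SE 0.18, adjusted p = 0.0123), and those from the controls -0.47 (0.0296) and -0.86 (0.00912). The suffix x marks probe sets with probes that also match other transcripts. In this step 3 of 17 such member probe sets passed (17.6%, against 2.93% of all with that suffix): this one and those of Hnrnpr and Sf3b2 described below, whose levels are uncertain for the same reason. Hnrnpa1 also has many processed copies in the genome. A further 3 probe sets carry the names of both Hnrnpa1 and its pseudogene Hnrnpa1l2-ps2 and were not used.

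Hnrnpr, a relative of Syncrip, read 8.28, 8.62 and 8.58 in control hearts at 1437526_x_at, 8.89, 9.15 and 9.22 in 4wkpost hearts and 8.25, 8.01 and 7.93 in 3wkAkt/6wkpost hearts. The last group lay below both others, and the difference from 4wkpost was -1.03 (SE 0.16, adjusted p = 0.00732). Its other 3 probe sets differed by -0.11, 0.22 and 0.23 (adjusted p from 0.666 to 0.834). Hnrnph3, a binder of G runs with 1 probe set past the filter, read 9.11, 8.82 and 9.08, then 8.76, 9.0 and 8.97, then 8.13, 8.00 and 8.04. It differed by -0.85 from 4wkpost (SE 0.14, adjusted p = 0.0106) and by -0.94 from the controls (adjusted p = 0.00244), and was lower in every heart with Akt on than in any other.

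Hnrnpu, which binds nuclear RNA and chromatin, read 7.95, 8.23 and 8.20 in control hearts at 1434390_at, 8.27, 8.09 and 8.21 in 4wkpost hearts and 7.49, 7.21 and 7.19 in 3wkAkt/6wkpost hearts. It fell by 0.89 from 4wkpost (SE 0.17, adjusted p = 0.0199) and by 0.83 from the controls (0.00907), without overlap. The other 4 probe sets of Hnrnpu differed from 4wkpost by -0.30 to 0.16. Hnrnpab, a protein of RNA transport and transcription, went the other way at 1426114_at: it read 10.57, 10.50 and 10.28 in control hearts, 10.14, 10.65 and 10.73 in 4wkpost hearts and 11.45, 11.48 and 11.44 with Akt on. Each of these 3 exceeded every heart of the other groups, by 0.95 over 4wkpost (SE 0.16, adjusted p = 0.0106) and 1.01 over the controls (0.00276). The other 4 probe sets of Hnrnpab differed from 4wkpost by -0.42 to -0.05, and 1453849_s_at, raised at 4 weeks, stayed 0.56 above the controls (0.0261).

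The smaller falls from 4wkpost were those of Hnrnpk 1448176_a_at by 0.60 (adjusted p = 0.0469), Srsf5 by 0.59 (0.047), Sf3b2 1438637_x_at by 0.63 (0.0391), Rbm25 1428907_at by 0.83 (0.0431) and Rbm20 by 0.64 (0.0492). Srsf5, an SR protein with 1 probe set, read 11.97, 12.22 and 11.92 in control hearts, 11.96, 12.16 and 11.83 in 4wkpost hearts and 11.60, 11.26 and 11.32 with Akt on, below every other heart. Sf3b2 1438637_x_at read 9.56, 9.35 and 9.63 in 4wkpost hearts and 8.99, 8.83 and 8.83 with Akt on, while its other 5 probe sets differed by -0.29 to 0.01. Rbm25, known for the splicing of the apoptosis gene Bcl2l1, read 9.12, 8.72 and 9.35, then 8.54, 8.10 and 8.05 at 1428907_at.

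Leaving out 1 heart at a time, the calls of Hnrnpa1 1455305_x_at, Hnrnpab and Hnrnpr held in all 9 fits. Hnrnph3 and Hnrnpa1 1436549_a_at were lost only without 4wkpost 3 (adjusted p = 0.0507 and 0.0528), and Hnrnpu without 4wkpost 1 or 3 or 3wkAkt/6wkpost 2 or 3 (up to 0.0803). The call of Hnrnpk was lost in every one of the 9, those of Sf3b2 and Srsf5 in all but the fit without 3wkAkt/6wkpost 1, that of Rbm20 in all but the fit without control 1, and that of Rbm25 in all but those without 4wkpost 2 or 3wkAkt/6wkpost 1, with adjusted p up to 0.153. The count ran from 3 without 4wkpost 3 to 13 without 3wkAkt/6wkpost 1, and over all 27083 probe sets from 239 to 642 in the same fits.

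**Figure D2:**
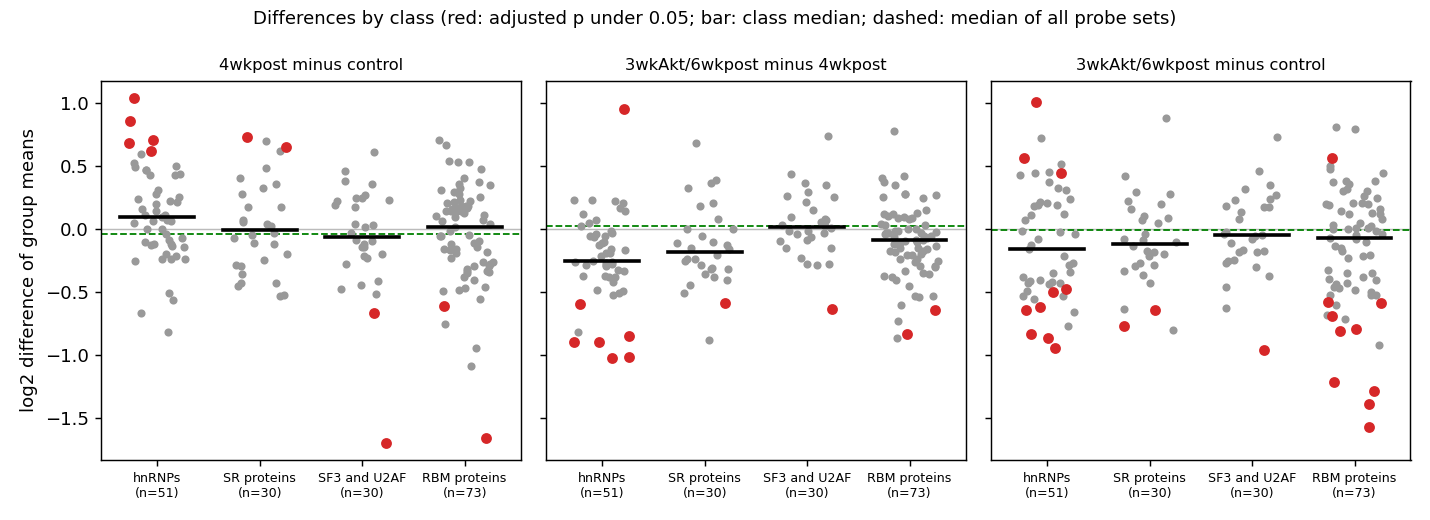
Log2 difference between group means (vertical axis) of each of the 184 probe sets, by class (horizontal axis, with the number of probe sets) and comparison (panel); bars are class medians and the dashed line is the median of all probe sets. Between 3wkAkt/6wkpost and 4wkpost the hnRNP median is -0.25 and the SR protein median -0.18, against 0.02 for all probe sets.

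The medians below are over called and uncalled probe sets together. From 4wkpost to 3wkAkt/6wkpost 40 of the 51 hnRNP probe sets had a difference at or below 0, with a median of -0.25, and the median was -0.18 for 30 SR protein probe sets, -0.09 for 73 RBM probe sets and 0.02 for 30 probe sets of SF3 and U2AF, against 0.02 over all probe sets. At 4 weeks after AAC the hnRNP median was 0.09 and those of the other classes lay between -0.06 and 0.02. Heart by heart, the hnRNP median stood at 0.01, 0.20 and 0.16 above the control mean in 4wkpost hearts 1 to 3, and at 0.11, -0.13 and -0.33 in 3wkAkt/6wkpost hearts 1 to 3; the control hearts themselves lay at -0.06, 0.10 and -0.01. The hnRNP median of 3wkAkt/6wkpost heart 1 thus lay within the range of the 4wkpost hearts, and hearts 2 and 3 lay below all others. Heart 1 gave the highest of the 3 values with Akt on at 99 of 184 members (53.8%), against 38.0% of all probe sets, and heart 3 the lowest at 82 (44.6%), against 32.6%. Without heart 1, which was also the one of that group with the highest atrial score (14.02, against 8.61 and 11.11), the median of the members against 4wkpost was -0.17 in place of -0.11. With the atrial score in the model 12 members passed in this comparison in place of 11. Without the 4 hearts that score highest, 1 control heart and 2 hearts in each other group are left, too few for a count of calls. In that fit the median of the members against 4wkpost was -0.20, against 0.02 over all probe sets. At 4 weeks after AAC the median in that fit was 0.08, against -0.05 over all probe sets. Between 3wkAkt/6wkpost and control it was -0.18, against -0.05. The part of atrial tissue in these results was not tested.

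**Figure D3:**
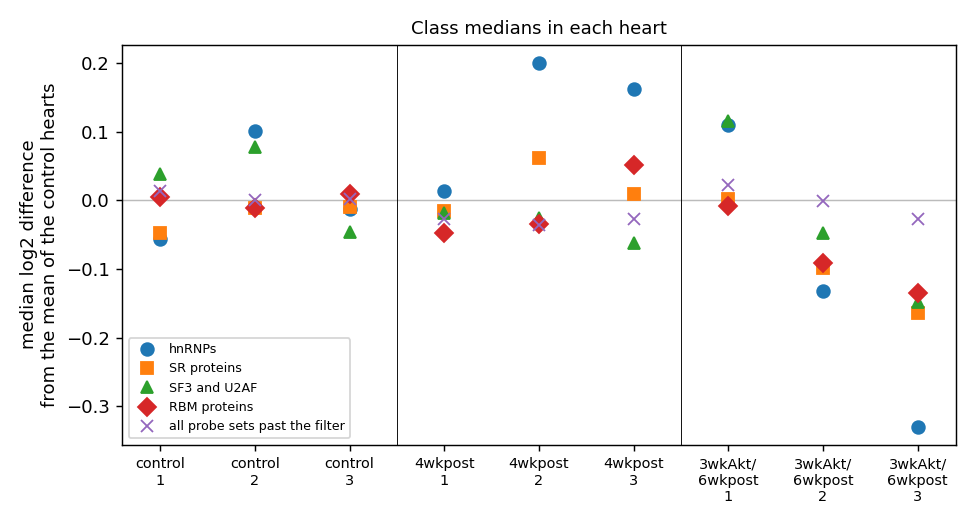
Median over each class of the log2 difference from the mean of the control hearts (vertical axis) in each of the 9 hearts (horizontal axis). The hnRNP medians run from 0.01 to 0.20 in 4wkpost hearts and are 0.11, -0.13 and -0.33 in 3wkAkt/6wkpost hearts 1, 2 and 3, while the medians of all probe sets stay between -0.04 and 0.02.

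Against the control hearts, the hearts with Akt on differed at 23 of 184 members (12.5%, against 13.4% of all probe sets), 19 lower (10.3%, background 6.51%) and 4 higher (2.17%, background 6.86%). Groups did not overlap at 61 of 184, against 32.1% of all probe sets. The counts of calls were 10 of 51 for hnRNPs, 10 of 73 for RBM proteins, 2 of 30 for SR proteins and 1 of 30 for SF3 and U2AF. The share for RBM proteins, 13.7%, is close to that of all probe sets. Of this class Rbmxl2, Rbm38, Rbmx, Rbm24, Rbm39, Rbm20, Rbm5 and Rbm6 fell and Rbm18 rose. Of the hnRNPs, Hnrnpa1, Hnrnph3 and Hnrnpu fell as described, joined by Hnrnpul2 1434551_at (-0.50, adjusted p = 0.0186), the CA-repeat binder Hnrnpl (-0.62, 0.0394) and Hnrnpa2b1 1433830_at (-0.64, 0.0421). Hnrnpk 1423684_at rose by 0.45 (0.0231), from 10.08, 10.09 and 10.10 to 10.47, 10.53 and 10.61.

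Rbm38, which stabilizes transcripts such as that of the cell cycle inhibitor p21 and also acts in splicing, read 11.58, 11.33 and 11.53 in control hearts, 10.51, 11.03 and 11.43 in 4wkpost hearts and 10.15, 10.32 and 10.30 with Akt on. The hearts with Akt on lay below all others, 2.33-fold below the controls (-1.22, SE 0.19, adjusted p = 0.00288), while the step from 4wkpost missed the threshold (-0.73, 0.0739). Rbmx, also called hnRNP G, read 8.92, 9.03 and 8.29 at 1426863_at in control hearts, 8.16, 7.85 and 7.96 in 4wkpost hearts and 7.91, 7.17 and 7.30 with Akt on, a difference from the controls of -1.29 (SE 0.24, adjusted p = 0.00598). Its other probe set, 1416354_at, differed by -0.68 (0.139), with 9.05, 8.25 and 7.56 in the 3 hearts with Akt on.

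Rbm24, which promotes muscle-type exons, fell at 1 of its 5 probe sets. At 1443715_at it read 8.19, 8.86 and 8.32 in control hearts, 7.43, 6.67 and 8.01 in 4wkpost hearts and 7.46, 6.51 and 7.24 with Akt on (-1.39, SE 0.33, adjusted p = 0.016). Another of its probe sets, 1454752_at, read 11.17, 11.81 and 11.84, then 12.34, 12.09 and 11.99, then 11.81, 11.48 and 12.01, a difference of 0.16 from the controls with a 95% interval from -0.27 to 0.59. The 5 probe sets of Rbm24 therefore ran from -1.39 to 0.35. Rbm39 fell at 2 of 7 probe sets, 1438420_at from 9.96, 10.07 and 10.22 to 9.32, 9.13 and 9.36 (-0.81, SE 0.13, adjusted p = 0.00309) and 1446148_x_at from 7.79, 7.78 and 7.74 to 7.21, 6.87 and 6.85 (-0.79, adjusted p = 0.0192). The other 5 of Rbm39 all lay below 0 without passing.

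Rbm5 and Rbm6, neighbouring genes whose products regulate the splicing of apoptosis genes, each fell at 1 probe set: Rbm5 1452186_at by 0.59 (adjusted p = 0.0164) and Rbm6 1440223_at by 0.58 (0.0323). Rbm18 1420607_at rose by 0.56 (0.0394). The SR protein genes Srsf5 and Srsf6 fell by 0.64 (0.0114) and, at 1447898_s_at, by 0.77 (0.0295). The 3 other Srsf6 probe sets differed by -0.80, -0.29 and -0.10 without passing, and at that of -0.80, 1416721_s_at, the hearts with Akt on read 9.79, 8.42 and 8.39.

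Of the 23 calls, 8 held in all 9 fits that left out a heart: those of Hnrnpa1 1436549_a_at, Hnrnpab 1426114_at, Hnrnph3, Hnrnpu, Rbm38, Rbm39 1438420_at, Rbmx and Rbmxl2. For Rbmxl2, which passed the filter only through its control hearts, this adds no support. Each of the other 15 was lost without at least 1 of the control hearts or of 3wkAkt/6wkpost 2 and 3. Those of Rbm18 and Hnrnpa2b1 were also lost without 4wkpost 2, and that of Rbm18 without 4wkpost 1 (adjusted p up to 0.149 for Rbm18). None was lost without 3wkAkt/6wkpost 1, a fit in which 39 members passed, 35 of them lower. Without control 2 the number was 10. Over all 27083 probe sets 4083 passed in the first of these fits, 2079 of them lower, and 1977 in the second, against 3623 with all hearts.

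Genes for several core splicing proteins had no call. Sf3b1, the SF3B subunit that holds the branch site, read 11.02, 11.28 and 10.92 at 1449138_at in control hearts, 10.97, 11.05 and 11.30 in 4wkpost hearts and 11.18, 11.02 and 10.95 with Akt on. Its 4 probe sets differed by -0.23 to 0.22 at 4 weeks and by -0.09 to 0.15 from there to Akt, and the interval at 1449138_at was -0.27 to 0.34 at 4 weeks. The 4 probe sets of Sf3a1 differed by -0.20 to 0.25 and by -0.28 to 0.44. No probe set of Srsf3, Srsf10, Hnrnpd, Sf3a1, Sf3b1 or U2af1 passed in any comparison, although the 95% intervals at Hnrnpd 1425142_a_at, from -0.82 to 0.35 at 4 weeks and from -0.62 to 0.55 after it, leave room for changes as large as those called elsewhere.

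Probe sets of 1 gene differed widely. At 4 weeks all tested probe sets of a gene had the same sign in 18 of the 47 member genes with 2 or more (38.3%, against 48.0% of 5425 such genes on the chips). From 4wkpost to Akt the number was 19 (40.4%, against 52.1%), and from control to Akt 20 (42.6%, against 50.8%). Among genes with exactly 2 the shares were 12 of 18 (66.7%, against 58.2%), 8 of 18 (44.4%, against 63.0%) and 14 of 18 (77.8%, against 61.6%). Among genes with exactly 3 they were 2 of 9 (22.2%, against 39.9%), 3 of 9 (33.3%, against 42.2%) and 3 of 9 (33.3%, against 42.0%). A probe set that lies on both chips was counted once for each, so Rbm42 and Hnrnpul2 stand among the genes with 3. The median distance between the highest and lowest difference of a gene was 0.52 at 4 weeks, against 0.40 over all such genes, then 0.35 against 0.32 and 0.60 against 0.44. This distance grows with the number of probe sets, which were 156 for the 47 member genes and 14442 for the 5425. With exactly 2 probe sets it was 0.34 against 0.29, 0.26 against 0.23 and 0.27 against 0.32. With exactly 3 it was 0.60 against 0.50, 0.32 against 0.40 and 0.81 against 0.57, so members did not always spread more.

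Calls shared by probe sets of a gene were few among members and over all genes alike. Of the member genes with 2 or more tested, 8 had a call at 4 weeks and in 0 of them did a further probe set pass in the same direction, against 98 of 703 over all genes. From 4wkpost to Akt 7 had a call and 1 of them, Hnrnpa1, had 2, against 69 of 344. Against the controls 13 had a call and 3 of them, Hnrnpa1, Hnrnpab and Rbm39, had 2, against 451 of 1726. No member gene was called in both directions in any comparison, against 8, 0 and 37 over all genes. The largest spread at 4 weeks was that of Rbm24 (1.62), followed by Hnrnpdl (1.19), Rbm25 (1.13), Hnrnpk (1.11) and Srsf2 (1.08). From 4wkpost to Akt it was that of Hnrnpab (1.37), followed by Srsf2 (1.27), Hnrnpr (1.26), Srsf11 (1.07) and Hnrnpu (1.06). Rbm42 and Sf3b1 were among the 5 genes of 3 or more probe sets with the smallest spread in every comparison, at most 0.36 and 0.46. The probe set 1415739_at of Rbm42 lies on both chips, where the same RNA gave differences at 4 weeks of 0.14 and 0.35, and 1415765_at of Hnrnpul2 gave 0.21 and 0.20, a measure of technical spread. These were counted once for each chip, and Rbm42 reached 3 probe sets only in this way. Its small spread is thus in part that of 1 probe set against itself. Signs agreed across the set for some genes without a call at each probe set: all 6 of Srsf1 lay above 0 at 4 weeks (0.02 to 0.73) and below 0 from there to Akt (-0.50 to -0.13).

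**Figure D4:**
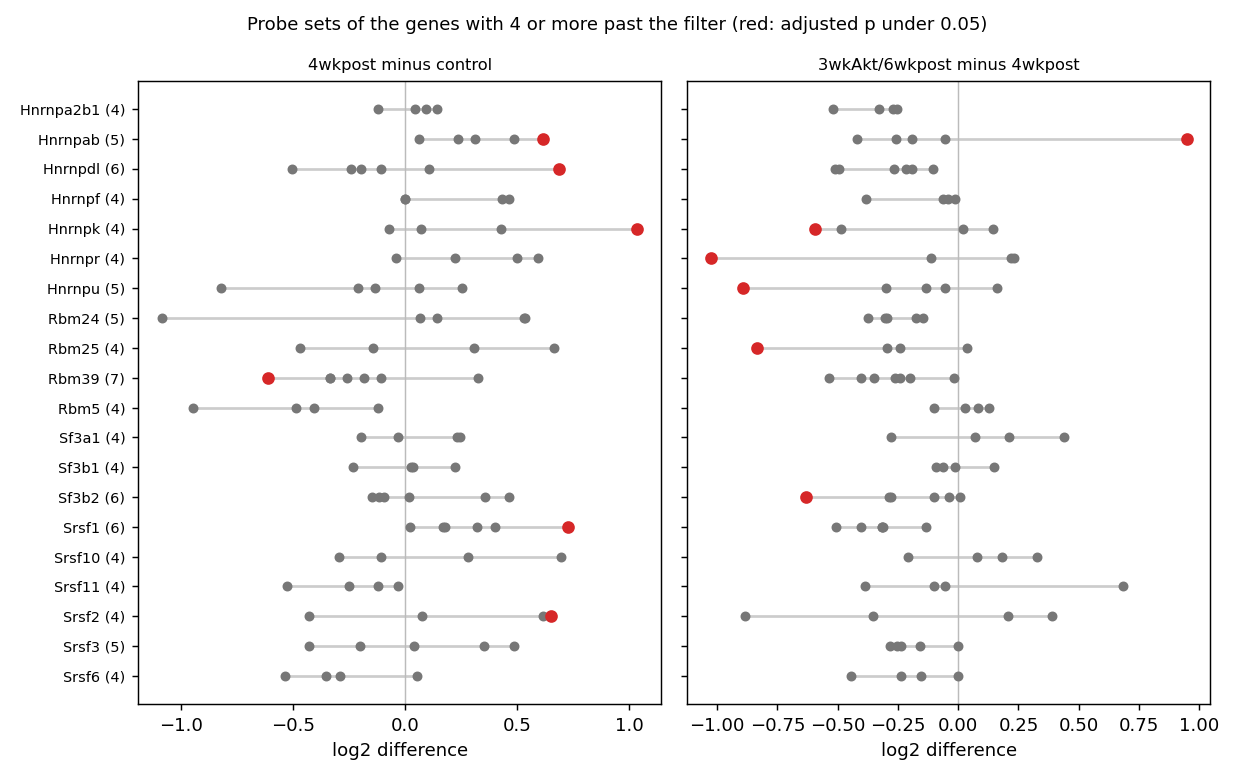
Log2 difference (horizontal axis) of every tested probe set of the 20 member genes with 4 or more (rows, number in brackets) at 4 weeks after AAC (left) and from 4wkpost to 3wkAkt/6wkpost (right); red marks adjusted p under 0.05. In Hnrnpab 1 probe set lies at 0.95 and the other 4 below 0 in the right panel, and in Hnrnpk 1 lies at 1.04 and another at -0.07 in the left.

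Rbm20, the splicing factor of titin and other sarcomere transcripts, whose loss causes dilated cardiomyopathy, was measured by 1 probe set past the filter, on chip 430B. It read 11.02, 11.34 and 11.44 in control hearts, 11.27, 11.04 and 11.35 in 4wkpost hearts and 10.61, 10.38 and 10.73 in 3wkAkt/6wkpost hearts. Control and 4wkpost hearts overlapped (-0.05, 95% interval -0.39 to 0.28), and all 3 hearts with Akt on lay below them, by 0.64 from 4wkpost (adjusted p = 0.0492) and by 0.69 from the controls (SE 0.15, adjusted p = 0.0124; lost without control 2 or 3, up to 0.0657). Of 45 probe sets of 14 transcripts known to be spliced by Rbm20, 4 passed at 4 weeks (3 higher, 1 lower), 7 from there to Akt (5 higher, 2 lower) and 17 against the controls (12 higher, 5 lower). These are 8.89%, 15.6% and 37.8%, against 4.43%, 2.54% and 13.4% of all probe sets. The list medians were -0.07, 0.00 and 0.02. The 17 calls came from 10 genes, with 4 of Pdlim5 and 3 of Ttn. Of the 14 probe sets of heart muscle markers, which share Ryr2 with this list, 14.3%, 0% and 35.7% passed. The high share against the controls was thus not particular to transcripts spliced by Rbm20.

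The largest difference in that list was that of triadin (Trdn), which anchors the calcium release complex of heart muscle. At 1426143_at it read 6.61, 6.75 and 6.66 in control hearts, 6.16, 6.09 and 6.16 in 4wkpost hearts and 9.86, 9.72 and 10.65 with Akt on, 15.3-fold over 4wkpost (3.94, SE 0.23, adjusted p = 2.58e-05). Its signal in every control and 4wkpost heart lay below the cut of the filter on chip 430A, a mean signal of 127.3. This probe set passed only through the hearts with Akt on, so the size of its rise is uncertain. From 4wkpost to Akt the 6 tested probe sets of Trdn ran from -0.74 to 3.94, so they did not move alike, and 1426144_x_at rose by 1.26 (0.00492). Titin (Ttn), the giant spring of the sarcomere, fell against the controls at 3 of 6 probe sets, among them 1431928_at by 1.15 (0.00898; 9.69, 9.89 and 9.74 against 9.12, 8.16 and 8.59) and 1427445_a_at by 0.56 (0.0124). The calcium release channel Ryr2 rose at 1421126_at by 1.51 (0.0115), with 9.13, 9.77 and 10.83 with Akt on against 8.71, 8.18 and 8.30. The other of its 2 tested probe sets differed from the controls by -0.11 without passing, so the 2 did not move alike. All 5 probe sets of the Z-disc gene Pdlim5 lay above the controls, 4 of them past the threshold (up to 1.42 at 1421413_a_at, 0.000433). Which exons these probe sets read was not looked up, and levels of whole transcripts and of exons cannot be told apart here.

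**Figure D5:**
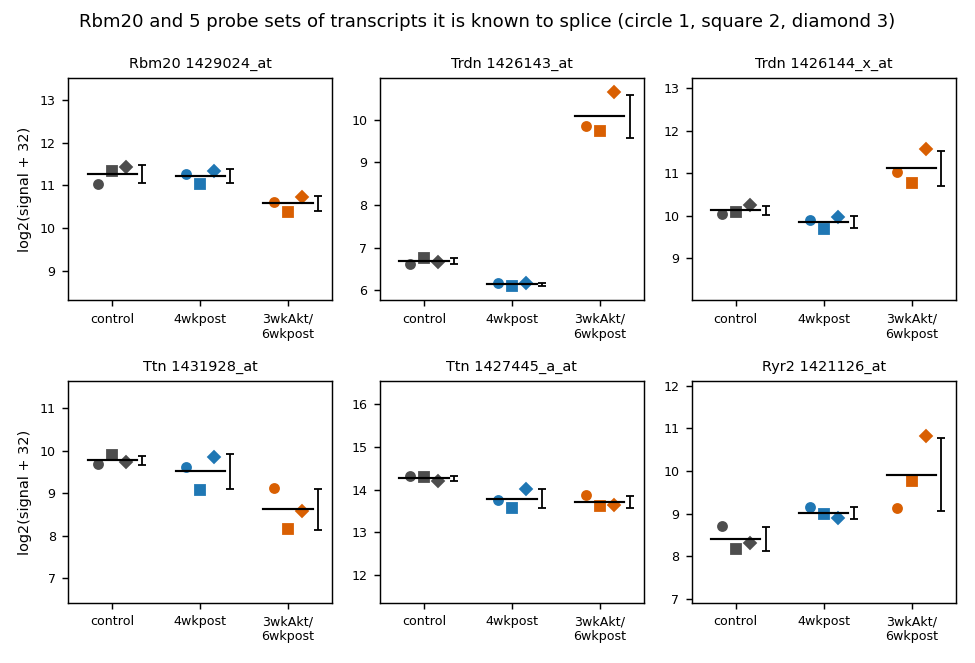
Level of Rbm20 and of 5 probe sets of transcripts it is known to splice, as log2(signal + 32) (vertical axis, 5.2 units in each panel), in the 3 hearts of each group, with mean and SD. Rbm20 is lowest with Akt on (10.38 to 10.73), Trdn 1426143_at is highest there (9.72 to 10.65), and Ttn 1431928_at reads 8.16 to 9.12 there, overlapping with 4wkpost hearts but below the controls.

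In the core spliceosome outside the rule, 2 of 100 probe sets passed at 4 weeks, 1 from 4wkpost to Akt and 12 against the controls (2%, 1% and 12%, against 4.43%, 2.54% and 13.4% of all probe sets). The helicase gene Dhx15, which takes the spliceosome apart, had the pattern of Hnrnpk 1448176_a_at: 9.42, 9.56 and 9.60 in control hearts, 10.43, 10.44 and 10.36 in 4wkpost hearts and 9.61, 9.85 and 9.97 with Akt on, a rise of 0.88 (adjusted p = 0.00933) and then a fall of 0.60 (0.038, lost without any 1 heart but 3wkAkt/6wkpost 3). Among 143 probe sets of other regulators of alternative splicing, 8 passed at 4 weeks (5 higher, 3 lower), 5 in the second step (2 higher, 3 lower) and 30 against the controls (10 higher, 20 lower). These are 5.59%, 3.5% and 21% of the list, the first and second little above the shares of all probe sets. The kinases Clk1 and Clk4, which phosphorylate SR proteins, fell against the controls by 1.01 (0.00231) and 0.96 (0.00248), and the SR protein kinase Srpk2 rose at 3 probe sets (0.71 to 0.94). Rbfox1, a splicing factor of muscle and neurons, fell at 3 probe sets (-1.89 to -1.27), the largest at 1418314_a_at from 9.52, 9.56 and 9.74 to 8.14, 7.39 and 7.62 (0.00253). Matr3, a nuclear matrix protein that binds RNA, rose at 1450874_at by 0.90 at 4 weeks (0.0105, lost without control 3) and fell there by 0.67 in the second step (0.0303, lost without 6 of the hearts). Its probe sets 1434888_a_at and 1438368_a_at went the other way at 4 weeks, by -0.26 and -0.35 without passing. With Akt on these differed from the controls by -0.65 (0.0408) and -0.89 (0.0121), against 0.23 at 1450874_at.

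Beside both comparisons of 3wkAkt/6wkpost hearts stand changes in cell type markers. Fibroblast markers were higher with Akt on at 6 of 16 probe sets against both other groups, all of Col1a1, Col1a2, Col3a1 and Postn. The summed signal of the list lay between 34888 and 39912 in control hearts, 26404 and 42043 in 4wkpost hearts and 40865 and 64361 with Akt on. Not all of the list rose: Dcn had signals of 13058 to 17421 with Akt on, below the 19378 to 21017 of control hearts. Pdgfra, at 536 to 592 with Akt on, overlapped with the 507 to 673 of control hearts. Markers of cycling cells, 3 of 5 probe sets of which were higher than in 4wkpost, summed to 673 to 836, 474 to 509 and 856 to 1668. Endothelial markers summed to 13696 to 15260 in control hearts, 9339 to 10996 in 4wkpost hearts and 8208 to 10182 with Akt on, with 1 of 10 probe sets lower at 4 weeks and 3 of 10 lower with Akt on than in controls. Adipocyte markers summed to 10107 to 11407, 9020 to 11625 and 7334 to 8335, lower in every heart with Akt on than in any other. Of their probe sets 1 of 6 was lower than in 4wkpost and 3 of 6 lower than in controls, all of Fabp4. This gene also made up nearly all of the sum (9730 of 10107 in control heart 1). Adipoq had signals of 338, 9.3 and 37.6 with Akt on and 30.0, 209 and 93.4 in control hearts, which overlap. Smooth muscle markers summed to 16343 to 18097, 12422 to 14532 and 9676 to 12192. Rgs5 made up most of this sum (11669 of 16343 in control heart 1). Cnn1 went the other way, with signals of 207, 46 and 22 in 4wkpost hearts and 409, 508 and 260 with Akt on. It was the only probe set of this list to pass in that step (limma adjusted p = 0.0496). The sums of heart muscle markers were 191078 to 211159, 160423 to 166120 and 147869 to 181832. The part of these cell types in the differences of the splicing factors was not tested.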

How the data were processed

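Total RNA was extracted with the Ultraspec-II system and labelled by the manufacturer's procedure for the arrays, per the labels' protocols. The deposited values are MAS5 signal intensities, per the submitters' processing notes. The version of MAS5, its chip description and its settings are not given in the sources used here. The trimmed mean (2% off each end) of the deposited intensities was 500.2 on every 430A array and 122.51 on every 430B array, so they had been scaled before deposit, which removes any change in total RNA.

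Arrays of a chip were scaled to 1 common trimmed mean and log2(signal + 32) was taken. The brightest 60% of probe sets of each chip (27083 in all) were tested in R 4.3.3 with limma 3.58.1 (lmFit, eBayes with a trend) on the group means of all 9 hearts. P-values were adjusted by Benjamini-Hochberg over both chips, with calls at adjusted p under 0.05. Intervals are at 95%. The code was tested on simulated data. Gene symbols and RefSeq gene IDs agreed for all 228 members.

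Named are all called members with the other probe sets of their genes, a fixed list of well-known splicing factors, and the genes with the largest and smallest spread between probe sets; Srsf6, and the genes named from the lists of other splicing genes, were chosen after their values were seen. Members, lists and motifs were chosen with earlier results of these data known. Samples with the same replicate number did not deviate together. The alternatives were scaling, pseudocount, filter, variance trend, samples in the fit, a replicate block, adjustment within chips, 430B on the 430A scale, 4wkpost replicates 1 and 3 as 1 sample, 1 probe set per gene, and leaving out each heart. A model with the atrial score, and a fit without the 4 hearts highest in it, were added after seeing the data. The number of arrays limits the precision.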

Additional observations from a re-analysis of the deposited data

How the results depend on the processing

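No called member or called probe set of the 3 lists changed sign under any alternative setting tried. Counts of members passing the test were less stable. For 4wkpost against control, where 11 passed, the count was 6 with quantile normalization (2 higher and 4 lower, so 33.3% higher in place of 63.6%), 4 with no filter, 5 without a variance trend, 17 with adjustment within each chip, 3 with 4wkpost replicates 1 and 3 as 1 sample, 4 with 1 probe set per gene, and 3 to 18 when 1 heart was left out. For 3wkAkt/6wkpost against 4wkpost, where 11 passed, it was 6 with no filter, 6 without a trend, 5 with only the 2 groups in the fit, 6 with those replicates as 1 sample, 4 with 1 probe set per gene, and 3 to 13 when 1 heart was left out. For 3wkAkt/6wkpost against control, where 23 passed, it was 10 with 1 probe set per gene and 10 to 39 when 1 heart was left out. Without the 4 hearts with the highest atrial score 1 control heart is left, too few for a count of calls. The medians of the members in the 3 comparisons were then 0.08, -0.20 and -0.18, against 0.03, -0.11 and -0.09 with all hearts. With 1 probe set per gene only 75 members are tested; the cause of the other changes was not tested.

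With the replicate block the counts were 6, 7 and 19. Same-numbered hearts showed deviations correlated between -0.18 and 0.10 in 9 pairs, 1 of them over 0.1. No pairing by number was seen, but this cannot settle whether hearts shared a day or litter. Hearts with different numbers reached 0.16 (control 2 with 4wkpost 1). Over all 27083 probe sets the counts were 1199, 688 and 3623, and leaving out 1 heart gave 118 to 1799, 239 to 642 and 1696 to 4083. Of 44 members below the filter, limma called 0 in each comparison when all were tested (4, 3 and 12 at an unadjusted p under 0.05).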
